A study of Danio rerio with 4 samples.

Results

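The Notch ligand and Fringe genes of the zebrafish were followed in the injured heart ventricle. They are the 9 genes *dlc*, *dll4*, *jag1a*, *jag1b*, *jag2a*, *jag2b*, *lfng*, *mfng* and *rfng*, taken by symbol from a table of 17221 genes, and each of the 9 had a row. The samples were ventricles of adult AB fish, frozen locally (cryoinjury), heat-shocked at 39 °C and collected 24 h after the injury. The groups were WT and Tg(hsp70l:sflt4), a line that carries sflt4, the soluble version of Flt4, a receptor for Vegfc, under the heat-inducible *hsp70l* promoter. Both groups received the injury and the heat shock, so a heat shock without the transgene is the control and no uninjured or unheated ventricle enters the comparison. Each group had 2 libraries, each from a pool of 3 ventricles, and the title of the series names targets of Vegfc signaling as its question.

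Notch is a receptor that is switched on by a ligand on a neighbouring cell. Delta and Jagged ligands pull on the receptor, it is cut, and its inner part enters the nucleus and turns on genes of the *her* and *hey* families. Fringe enzymes add a sugar to fucose on the receptor's outer part and so alter which ligands activate it: in mammalian cells Lfng and Mfng favour Delta over Jagged1. In vessels *dll4* is the Delta ligand known for its link to Vegf signaling, and Notch signaling in the endocardium, the inner lining of the heart, is known to be needed for regeneration of the zebrafish heart.

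By the patterns that rounding left in the table, about 29000000 to 34800000 reads per library had been counted in genes. The tissue label was checked with 12 cardiomyocyte marker genes, which were present in all libraries with summed values from 961835 to 1207358. *flt4* itself did not separate the groups, at 618 and 515 normalized reads in the WT pools and 504 and 538 in the transgenic pools. Whether reads of sflt4 were counted as *flt4* was not checked, so these values do not measure expression of the transgene. The SD between libraries of a group, pooled over the genes tested on the log2 scale, was 0.51 in the WT pools and 0.39 in the transgenic pools. WT replicate 2 stood apart in endogenous *hsp70l*, with 4264 against 461 in WT replicate 1, 1191 in Tg(hsp70l:sflt4) replicate 1 and 647 in replicate 2 of that group. Mitochondrial genes took 18.8% to 19.5% of the total in WT, against 14.4% to 17.1% with the transgene.

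All 6 ligand genes and *lfng* had the lower mean in Tg(hsp70l:sflt4), while *mfng* and *rfng* had the higher mean. The ligand gene *dlc* was 1.75-fold lower, *jag1a* 1.88-fold lower and *lfng* 1.47-fold lower, and *mfng* was 1.39-fold higher. None of the 9 passed the test, which was limma on log2(value + 1) with Benjamini-Hochberg adjustment over the 17071 genes tested. The threshold was an adjusted p under 0.05, which 0.0% of those genes met, the lowest being 0.154. With no adjustment limma gave 1881 genes at p under 0.05, or 11.0%, and limma-voom, which also called 0, gave 1819. Among the 9 genes 3 had an unadjusted p under 0.05, namely *dlc*, *lfng* and *mfng*. The number depended on processing: it was 2 with libraries scaled to equal totals and 4 with upper quartiles. Without trend or robust moderation *jag1a* took the place of *lfng*. The values of both groups did not overlap for 8 of the 9, 6 of them lower and 2 higher in Tg(hsp70l:sflt4). Of these *jag2a* (nearest values 25 in WT and 24) and *rfng* (216 in WT and 224) were apart by less than counting error. Over all genes tested 43.2% did not overlap, 21.4% lower and 21.8% higher, and 51.3% had the lower mean in Tg(hsp70l:sflt4). The median log2 difference was -0.33 for the 9 genes and -0.47 for the 6 ligand genes, beside -0.010 for all genes tested. All 9 passed the minimum mean of 10. In whole ventricles fewer cells of a type and less RNA per cell cannot be told apart.

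**Figure D1:**
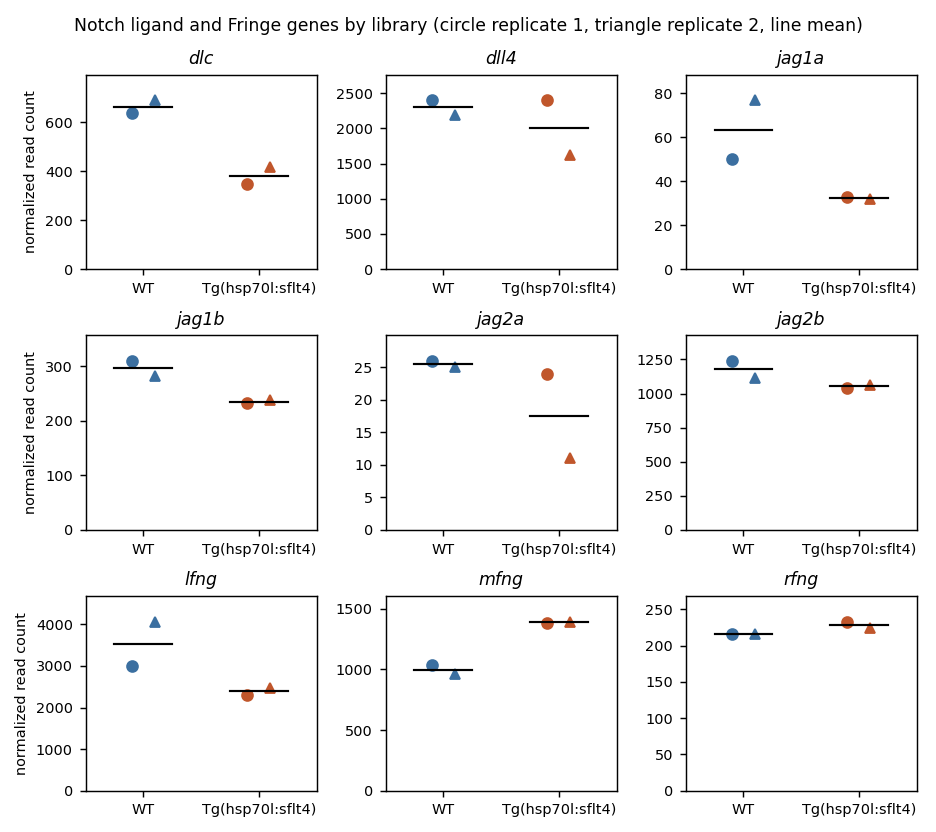
Normalized read counts of the 9 genes (vertical axes, each from 0 on its own scale) in each library, with WT in blue, Tg(hsp70l:sflt4) in orange and a line at the mean of 2 libraries. Both transgenic libraries lie below both WT libraries for *dlc*, *jag1a*, *jag1b*, *jag2a*, *jag2b* and *lfng*, above them for *mfng* and *rfng*, and on both sides of WT replicate 2 for *dll4*.

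The Delta ligands were *dlc* and *dll4*. *dlc* (ENSDARG00000002336) encodes DeltaC, known from the segmentation clock of the zebrafish embryo and from arteries, and lies on chromosome 15 at 20463448 to 20468302 on the minus strand (danRer11). It gave 638 and 692 normalized reads in the WT pools and 346 and 416 in the transgenic pools. The groups were well apart, and the lower WT library exceeded the higher transgenic one by more than the replicates of either group differed. The means were 665 ± 38.2 and 381 ± 49.5 (SD, n = 2 per group). The log2 difference was -0.81 (SE 0.17, 95% interval -1.23 to -0.38, limma adjusted p = 0.308). By p-value *dlc* stood at rank 202 of the genes tested, and 10.9% of them had a larger difference in either direction. With each library left out in turn its difference ran between -0.94 and -0.67. As the groups did not overlap, its sign could not turn in these fits.

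*dll4* (ENSDARG00000070425, chromosome 20, 28245164 to 28257992, plus strand) gave 2406 and 2191 in the WT pools and 2400 and 1622 in the transgenic pools. One transgenic library was thus level with WT replicate 1 and the other was the lowest of the 4, so the groups overlapped. That is a log2 difference of -0.22 (95% interval -0.75 to 0.31, limma adjusted p = 0.735). Without Tg(hsp70l:sflt4) replicate 2 it turned to 0.064, and without replicate 1 of that group it was -0.50. The interval spans both a decrease and an increase, so these libraries do not show whether *dll4* differed.

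The ratio of *dlc* to *dll4* within a library does not depend on how libraries were scaled. It was 0.265 and 0.316 in the WT pools and 0.144 and 0.256 in the transgenic pools, the lowest value being that of Tg(hsp70l:sflt4) replicate 1. The log2 ratio differed by a mean of -0.59 (Tg(hsp70l:sflt4) minus WT) and the groups did not overlap. Leaving out Tg(hsp70l:sflt4) replicate 1 gave -0.17, and leaving out replicate 2 of that group gave -1.003. An exact two-sided permutation test of 2 against 2 libraries gave p = 0.333, the smallest it can give, and adjusted over 5 such ratios the p was 0.417.

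The Jagged ligands were represented by both zebrafish copies of Jagged1 and both of Jagged2. Jagged1 is known in mammals for signaling in arteries, heart valves and the epithelium of the inner ear, and Jagged2 for limb and thymus development. *jag1a* (ENSDARG00000030289, chromosome 1, 51104984 to 51157660, minus strand) gave 50 and 77 in the WT pools and 33 and 32 in the transgenic pools. The transgenic libraries were alike and both lay below WT, where replicate 2 was far the higher. The log2 difference was -0.91 (SE 0.38, 95% interval -1.84 to 0.017, limma adjusted p = 0.456). Leaving out WT replicate 2 gave -0.61, and leaving out WT replicate 1 gave -1.22. At these counts precision was limited. The exact 95% Poisson interval, which covers counting error only, was 37.2 to 65.7 for WT replicate 1 and 60.8 to 96.0 for WT replicate 2. For Tg(hsp70l:sflt4) it was 23.0 to 45.4 in replicate 1 and 21.0 to 45.7 in replicate 2.

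*jag1b* (ENSDARG00000013168, chromosome 13, 35339182 to 35390095, plus strand) gave 310 and 282 in the WT pools and 232 and 238 in the transgenic pools. The groups did not overlap and the replicates lay close together. This gave a log2 difference of -0.33 (95% interval -0.79 to 0.13, limma adjusted p = 0.560), which stayed between -0.40 and -0.26 with each library left out. Within libraries, *jag1a* relative to *jag1b* was 0.161 and 0.273 in the WT pools and 0.142 and 0.134 in the transgenic pools, with WT replicate 2 alone standing high (exact permutation p = 0.333). The log2 ratio differed by a mean of -0.58, and by -0.21 without WT replicate 2.

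*jag2b* (ENSDARG00000021389, chromosome 20, 21391181 to 21475620, plus strand) gave 1240 and 1114 in the WT pools and 1042 and 1061 in the transgenic pools. The groups did not overlap, but the gap between them was smaller than the difference between the WT libraries. In log2 terms the difference was -0.16 (95% interval -0.50 to 0.18, limma adjusted p = 0.699), and -0.083 without WT replicate 1. *jag2a* (ENSDARG00000014246, chromosome 13, 33488032 to 33551699, plus strand) had few reads, with 26 and 25 in the WT pools and 24 and 11 in the transgenic pools. Only Tg(hsp70l:sflt4) replicate 2 was clearly below the others, and the counting interval of its value was 5.42 to 20.8. The log2 difference was -0.61 (95% interval -1.95 to 0.72, limma adjusted p = 0.705) and -0.084 without that library. The ratio of *jag2a* to *jag2b* did not separate the groups (exact permutation p = 1.0). Reads of close copies such as these pairs can be divided between genes in counting, which was not checked here.

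**Figure D2:**
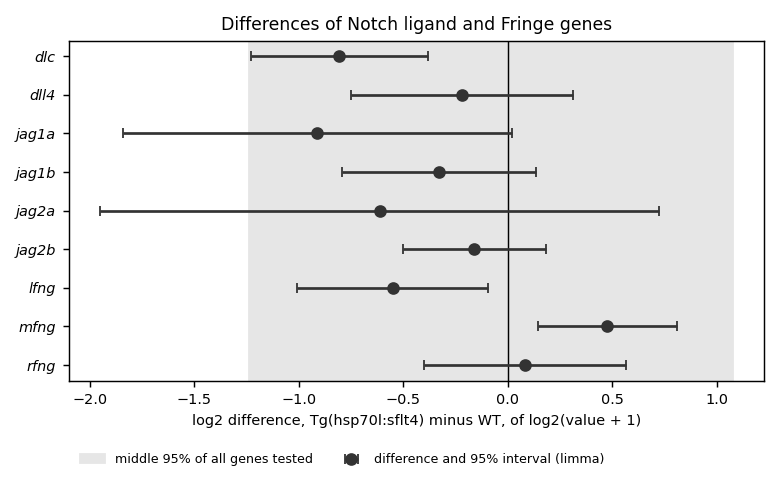
Log2 difference of each gene, Tg(hsp70l:sflt4) minus WT on the log2(value + 1) scale (horizontal axis), with its 95% interval from limma and, in grey, the middle 95% of all genes tested, from -1.24 to 1.08. The intervals of *dlc*, *lfng* and *mfng* do not reach 0, and all 9 differences lie inside the grey band.

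The 3 Fringe genes did not share a direction. *lfng* (ENSDARG00000037879, chromosome 3, 41917499 to 41926869, plus strand) encodes Lunatic fringe. It gave 3007 and 4063 in the WT pools and 2312 and 2458 in the transgenic pools, with means of 3535 ± 747 and 2385 ± 103 (SD, n = 2 per group). Both transgenic libraries were lower, and WT replicate 2 was the highest of the 4 by a wide margin. The log2 difference was -0.55 (SE 0.18, 95% interval -1.01 to -0.097, limma adjusted p = 0.395). Leaving out WT replicate 2 gave -0.33, and leaving out WT replicate 1 gave -0.77.

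*mfng* (ENSDARG00000042925, chromosome 22, 15251527 to 15280638, minus strand) encodes Manic fringe. It gave 1036 and 959 in the WT pools and 1381 and 1393 in the transgenic pools, or 997.5 ± 54.4 and 1387 ± 8.49 (SD, n = 2 per group). The libraries of each group were close and the groups well apart, with the transgenic libraries higher. Between the means the log2 difference was 0.48 (SE 0.13, 95% interval 0.15 to 0.81, limma adjusted p = 0.356), and it ran from 0.42 to 0.53 with each library left out.

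*rfng* (ENSDARG00000019746, chromosome 12, 3054442 to 3077395, minus strand) encodes Radical fringe. It gave 216 in each WT library and 233 and 224 in Tg(hsp70l:sflt4). The groups did not overlap, but the gap was less than the counting error of 1 such value. The log2 difference was 0.081 (95% interval -0.40 to 0.56, limma adjusted p = 0.905). Leaving out Tg(hsp70l:sflt4) replicate 1 gave 0.052.

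The opposite directions of *lfng* and *mfng* met in their ratio. There were 2.90 and 4.24 *lfng* reads per *mfng* read in WT, against 1.67 and 1.76 in the transgenic pools. The transgenic libraries were nearly equal and both lay below WT. The log2 ratio was 1.81 ± 0.39 in WT, against 0.78 ± 0.054 in Tg(hsp70l:sflt4) (SD, n = 2 per group), a difference of -1.03 or 2.04-fold (exact permutation p = 0.333, adjusted p = 0.417 over 5 ratios). Leaving out WT replicate 2 gave -0.76, and leaving out WT replicate 1 gave -1.30. The ratio of *lfng* to *rfng* was 13.9 and 18.8 in the WT pools and 9.92 and 11.0 in the transgenic pools, also without overlap, with a log2 difference of -0.63 (exact permutation p = 0.333), or -0.42 without WT replicate 2. As the genes differ in length, these ratios are compared between libraries and do not rank the genes by level.

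**Figure D3:**
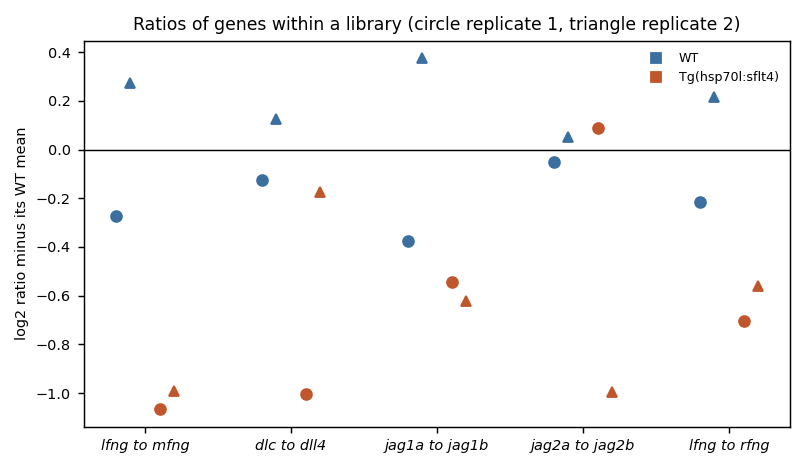
Log2 ratio of a pair of genes within each library minus the mean of that ratio in WT (vertical axis), for 5 pairs, with WT in blue and Tg(hsp70l:sflt4) in orange. For *lfng* to *mfng* both transgenic libraries lie below the WT mean, by 1.03 on average. For *jag2a* to *jag2b* one transgenic library lies above both WT libraries and the other far below.

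Replicate spread was uneven over these genes. It was below the median of all genes tested for *dlc*, *jag1b*, *jag2b*, *mfng* and *rfng*. For *dll4*, *jag1a*, *jag2a* and, narrowly, *lfng* it was above that median. The SD of log2 values between libraries of a group, pooled over both groups, had a median of 0.14 over the 9 genes and of 0.22 over all genes tested. It was lowest for *rfng* (0.028) and *mfng* (0.056), and highest for *jag2a* (0.53), the gene with the fewest reads. Set against counting error alone, 10 of the 18 replicate pairs differed by under 2 counting errors and 6 by 2 to 4. The remaining 2 were *lfng* in WT, at 12.7 counting errors, and *dll4* in Tg(hsp70l:sflt4), at 12.3. WT replicate 2 was the highest library for *dlc*, *jag1a* and *lfng*. It was also the library with high *hsp70l*, and whether the heat-shock response bears on these 3 genes was not tested. WT replicate 1 was the highest library for the 4 genes *dll4*, *jag1b*, *jag2a* and *jag2b*.

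**Figure D4:**
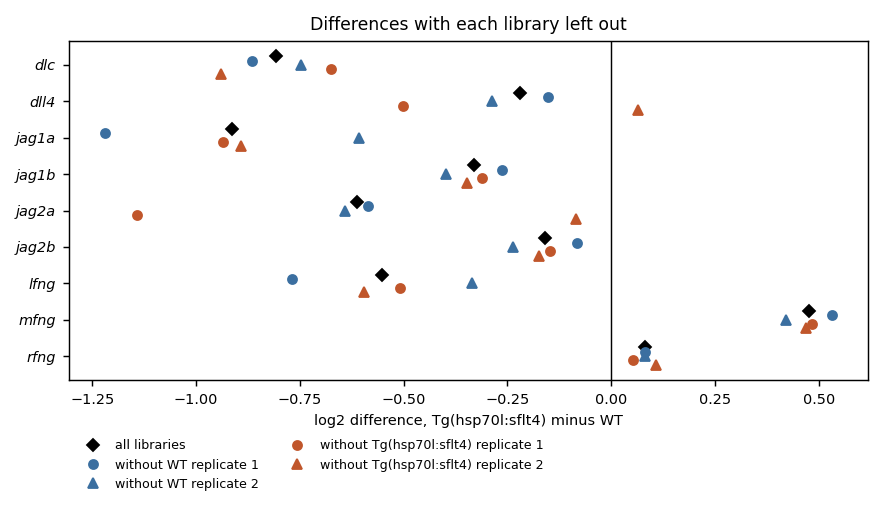
Log2 difference of each gene, Tg(hsp70l:sflt4) minus WT (horizontal axis), with all 4 libraries (black) and with 1 library left out (blue without a WT library, orange without a Tg(hsp70l:sflt4) library). Among the 9 genes the sign turned for *dll4*, to 0.064 without Tg(hsp70l:sflt4) replicate 2, and *jag2a* came close to 0 without the same library, at -0.084. Only for *dll4* did the groups overlap, so only its sign could turn.

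Several of these genes are known from endothelial and endocardial cells, so the markers of those cells are given beside them. All 19 such markers had a row, with none at 0, and their summed value was 73130 and 64120 in the WT pools and 67608 and 62463 in the transgenic pools, so the groups overlapped. None of the 19 passed, none had an unadjusted p under 0.05, and their median log2 difference was -0.098. They were uneven, with 12 lower and 7 higher in Tg(hsp70l:sflt4). For example, *kdrl* was lower (11024 and 9678 against 8563 and 7287) and *klf2b* higher (2034 and 1820 against 2759 and 2103). Per 1000 reads of these markers *dlc* gave 8.72 and 10.8 in the WT pools and 5.12 and 6.66 in the transgenic pools. *lfng* gave 41.1 and 63.4 against 34.2 and 39.4, and *mfng* 14.2 and 15.0 against 20.4 and 22.3. The log2 differences on that scale were -0.73, -0.48 and 0.55, beside -0.81, -0.55 and 0.48 before. Division by the marker sum moves every gene by the same amount, so these are no separate result. Groups did not overlap on it for 5 genes that were lower and 2 that were higher, while *dll4* (32.9 and 34.2 against 35.5 and 26.0) and *jag2b* (16.96 and 17.37 against 15.41 and 16.99) overlapped. The share of all genes tested without overlap on that scale was not computed, so these counts have no background. Among the lower genes *jag2a* was barely apart, at 0.3555 and 0.3899 in the WT pools against 0.3550 and 0.1761. The ratio to these markers was added after the values were seen.

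Markers of other cell types were uneven within their lists, and several sums rested on 1 gene. The 14 macrophage markers summed to 46223 and 47819 in the WT pools and 63497 and 83541 in the transgenic pools, higher as *mfng* was. Of the 14, 10 had the higher mean value and 4 the lower, and *mpeg1.1* overlapped (5184 and 4611 against 4320 and 5642). Without overlap 8 were higher and 3 lower, beside 21.8% and 21.4% of all genes tested. The 3 lower were *csf1ra* (2129 and 1179 against 1165 and 829), *cd74a* and *cd74b*. The 10 neutrophil markers summed to 26250 and 31907 against 33164 and 46572. By mean value 6 were higher and 4 lower, and on the log2 scale 5 were higher and 5 lower. However, *lcp1*, for a leukocyte actin-bundling protein, made up 59.1% of the sum. Without it the sums were 11398 and 16126 against 12116 and 16821, which overlapped. The 12 cardiomyocyte markers summed to 1207358 and 1153105 against 961835 and 1019435, lower as the ligand genes and *lfng* were, with 8 lower and 4 higher. Without *myl7*, the most abundant of them, the sums were 872136 and 836495 against 757522 and 774278, and *myh6* went the other way (5811 and 5561 against 12678 and 7074). Of 7 lymphocyte markers 4 were lower and 3 higher, and an immunoglobulin heavy chain gene made up 73.9% of their sum of 1218 and 339 against 221 and 267. Without it the sums were 124 and 182 against 108 and 119. The 4 skeletal muscle markers with a row were 2 lower and 2 higher, and *ckma* alone made up 99.7% of their sum. *mybpc2b* among them had 0 reads in each WT library, against 105 and 190. The part of these cell types in the differences of the Notch genes was not tested. Sums of epicardial, smooth muscle, fibroblast, erythrocyte and thrombocyte markers overlapped between the groups.

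The rest of the Notch pathway was described by 8 lists of 87 symbols, of which 64 had a row and 63 were tested. None was called by limma, 2 were lower at an unadjusted p under 0.05 and 0 were higher, where the shares over all genes tested were 5.45% and 5.57%. Of the 63, 36 had the lower mean, beside 51.3% of all genes tested, and the median log2 difference was -0.041. Groups did not overlap for 12 genes in each direction, or 19.0% each, beside the 21.4% lower and 21.8% higher of all genes tested. Another Delta gene, *dld*, gave 169 and 147 in the WT pools and 172 and 115 in the transgenic pools, the overlapping pattern of *dll4*.

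Among 9 genes of ligand endocytosis, the step by which the sending cell pulls on Notch, 4 had the lower mean. *neurl1b*, for a Neuralized-type ubiquitin ligase, gave 2085 and 2244 against 1912 and 1416, and *mib1*, for the Mind bomb ligase that acts on Delta, 1808 and 1644 against 1562 and 1488. Both were lower without overlap, at limma adjusted p = 0.494 and 0.661. *mib2*, its relative, was the other way at 66 and 75 against 86 and 99.

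Sugar transfer to Notch outside the Fringe family was covered by 8 genes, 2 of them with the lower mean. *pofut1*, for the enzyme that adds the fucose on which Fringe acts, gave 468 and 376 against 491 and 476, and *poglut1*, for an O-glucosyltransferase of Notch, 382 and 306 against 415 and 419. The transgenic libraries were the higher for both genes, at limma adjusted p = 0.704 and 0.610. Of 10 genes for receptor cleavage 6 had the lower mean.

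The receptor genes *notch1a*, *notch1b* and *notch3* had the lower mean in Tg(hsp70l:sflt4) and *notch2* the higher. Of these *notch3* (1765 and 1433 against 1262 and 1383) was lower without overlap, and *notch2* (2819 and 2868 against 2888 and 3112) was higher without overlap. The log2 difference of *notch1a* was -0.29, and -0.0079 without WT replicate 1 or -0.57 without WT replicate 2. That of *notch1b* was -0.44, and -0.0017 or -0.88 with the same libraries left out. That of *notch3* was -0.27, and -0.12 or -0.42. Of 11 target genes tested 7 had the lower mean. *hey1* was lowest relative to WT, at 128 and 93 against 54 and 60 (log2 difference -0.93, limma adjusted p = 0.397), and *her6* lay the other way at 1500 and 1205 against 1683 and 1901 (0.41, limma adjusted p = 0.453, and 0.25 without WT replicate 2). In the nuclear complex *spen*, for a co-repressor, gave 1427 and 1341 against 1138 and 959 (-0.40, limma adjusted p = 0.430). Among negative regulators *itcha*, for an E3 ubiquitin ligase, gave 141 and 161 against 123 and 90, and *fbxw7*, for the ligase subunit that marks the cut receptor for breakdown, 250 and 236 against 321 and 271.

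**Figure D5:**
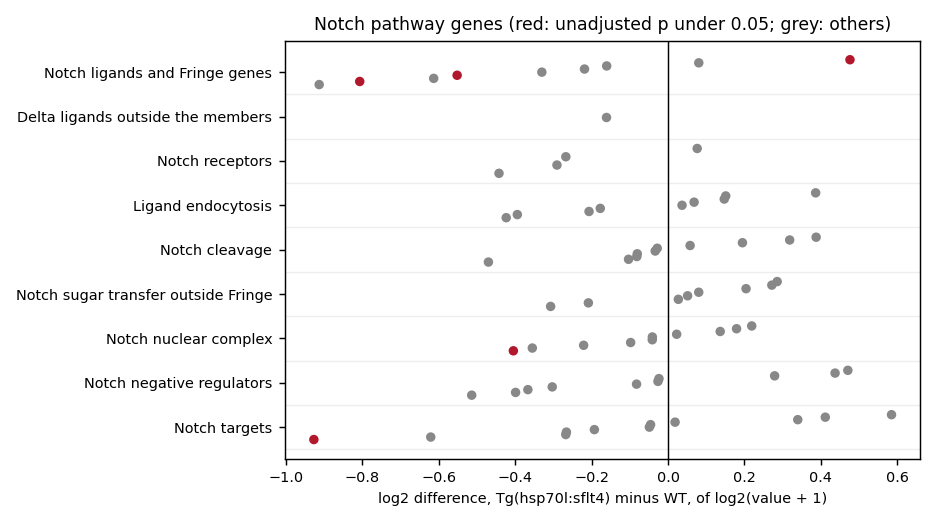
Log2 difference, Tg(hsp70l:sflt4) minus WT on the log2(value + 1) scale (horizontal axis), of the 9 ligand and Fringe genes and of 63 other Notch pathway genes in 8 lists. Each point is a gene, red at an unadjusted p under 0.05 from limma and grey otherwise; red are *dlc*, *lfng* and *mfng* in the top row, *spen* and *hey1*, and none passed after adjustment.

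The 9 genes lie on 7 chromosomes. *jag2a* and *jag1b* are on chromosome 13, 1.79 Mb apart, and *jag2b* and *dll4* on chromosome 20, 6.77 Mb apart. No other gene of the table overlapped any of them on either strand. The deposited annotation gave the term Notch signaling pathway to 8 of the 9, *jag2a* being the exception, and to 51 genes in all.

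Genes most like each of the 9 over the 4 libraries were sought among 13270 others, by the root mean square difference of log2 values centred on each gene's mean. Nearest to *dlc* was *pabpc4*, for a poly(A)-binding protein (24070 and 26719 against 13706 and 15978), at 0.0246. *smad4a*, for the shared mediator of Tgfb and Bmp signals, was nearest to *dll4* at 0.0186 (249 and 220 against 249 and 167). For *lfng* it was *ftr90* at 0.0226, and for *mfng* it was *alg6*, for a glucosyltransferase of the endoplasmic reticulum, at 0.0198 (353 and 330 against 465 and 487). With 4 libraries many genes share a pattern at the wider bound of 0.1: 28 lay within it for *dlc*, 108 for *lfng* and 278 for *mfng*.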

How the data were processed

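Libraries were prepared with a stranded mRNA kit from 500 ng of total RNA, per the labels. The genome build danRer11 and the tools DESeq2 1.18.1, featureCounts 1.6.3, Subread, Trimmomatic 0.38 and FastQC are named in the submitters' processing notes, with no role given. An aligner and a strand setting for counting are not given in the sources used here. Values deposited by the authors are a score, that is, read counts divided by a factor per library and rounded, with medians of 328 to 335 and totals of 30171847 to 34096403. Factors estimated from the rounding pattern, 0.885 to 1.10 and checked on simulated data, gave the reads per library, but in 3 libraries rounding merges neighbouring counts, so no count test was used.

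limma 3.58.1 in R 4.3.3 was fitted with trend and robust moderation to log2(value + 1), which understates changes of low genes, for 17071 genes with a mean of at least 10, without covariates. It was tested on simulated data with larger changes than those of the 9 genes, set in genes with higher means than *jag1a* and *jag2a*. Changes as small as those of the 9 were not simulated. Ratios within libraries were tested by exact permutation. Since the labels do not give how pools were formed, p-values reflect only how these samples vary. The 9 genes and the lists were chosen with earlier results of these data known. Besides the 9, the rule named up to 3 genes of each pathway list with the smallest p and the 2 genes most like each of the 9; part are given, and 1 item is not reported here. Of 204 list symbols 168 had a row, 9 through gene identifiers. Marker lists covered 11 cell types.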

Additional observations from a re-analysis of the deposited data

How the results depend on the processing

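The 9 genes were refitted with libraries scaled to equal totals or upper quartiles, a pseudocount of 5, no filter, a minimum mean of 50, limma-voom, no trend or robust moderation, the replicate number as a block, and each library left out. *jag1a* and *jag2a* could not be fitted at a mean of 50. None of the 9 was called in any of these fits, and *dll4* was the only one to change sign, running from -0.50 to 0.064 with a library left out. For the other 8 the groups did not overlap, so leaving out a library could not turn their sign and is no check of it. The smallest adjusted p was 0.0871, for *lfng* without WT replicate 1. Equal totals moved the median of all genes by 0.11 and *jag2b* to -0.050. With single libraries left out, where the lone sample is assumed to vary like the other group, 0 to 217 genes of the table were called, 217 without WT replicate 1 and 73 without WT replicate 2. *dld* ran from -0.45 to 0.13, *adam17b*, for a sheddase of the cleavage list, from -1.09 to 0.15, and the log2 ratio of *jag2a* to *jag2b* from -0.995 to 0.090. Each of these turned without Tg(hsp70l:sflt4) replicate 2, and the cause was not tested. Same-numbered libraries deviated together with a correlation of 0.14 over genes, and the labels give no shared origin. With the replicate block 0 genes were called and 2285 had an unadjusted p under 0.05. In this balanced layout the block cannot change a log2 difference, so the 7 of the 9 that were lower again are no check. Over all results and alternatives, 421 of 427 values were labelled as the same, 4 as reversed and 2 as moved. Part of these could not differ in direction. No filter, a minimum mean of 50, no trend or robust moderation and the replicate block leave each log2 difference as in the main fit. Leaving out a library cannot turn a gene or ratio whose groups did not overlap. For log2 differences of genes, the same meant an equal direction and side of the threshold. Ratios and values relative to endothelial markers were compared in direction only. Counts of genes had only to stay near the main count. Depth limits *jag2a* and *jag1a*, and 2 libraries per group limit every test.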
